A study of Mus musculus with 6 samples.

Results

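Fc receptors bind the constant part of antibodies and pass the signal into the cell. Expression of 7 genes of this family was followed in BCR-ABL1-driven mouse leukaemia: the IgG receptor genes Fcgr1, Fcgr2b, Fcgr3 and Fcgr4, the shared signalling subunit gene Fcer1g, and the Fc receptor-like genes Fcrla and Fcrl1. The members are all probe sets annotated to exactly 1 of these symbols, which gave 15 of 45037 tested probe sets, and each of the 7 genes had at least 1. The genes were chosen by their differences between the same groups of arrays as are described below, so those differences are given as a description with no p-value, and nothing is supported with them. The groups compared were 3 arrays of AID-/- leukaemia, which lacks activation-induced cytidine deaminase, the enzyme that mutates immunoglobulin genes, and 3 arrays of AID+/+ leukaemia, which has the gene. Both groups are labelled Balb/c, and the series concerns acute lymphoblastic leukaemia driven in both groups by BCR-ABL1, a fusion tyrosine kinase. The labels call the arrays biological replicates without saying whether each leukaemia came from its own animal, and they give no age, culture or host, so a p-value measures only the spread between these samples.

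Of the classical receptors for IgG, FcγRIIB, the product of Fcgr2b, is the inhibitory one: its tail carries an inhibitory tyrosine motif that recruits the phosphatase SHIP, and it is the principal IgG receptor of B cells. FcγRI, FcγRIII and FcγRIV, the products of Fcgr1, Fcgr3 and Fcgr4, are activating receptors of myeloid and, for FcγRIII, natural killer cells, and reach the cell surface with the Fcer1g product, the FcR gamma chain, which carries an activating tyrosine motif. Fcrla encodes an intracellular protein of B cells and Fcrl1 a surface receptor of B cells. Of the genes, 5 lie in a cluster on mouse chromosome 1, and Fcgr1 and Fcrl1 lie on chromosome 3.

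The promoter windows of the 4 genes whose difference exceeded 1 log2 unit at any probe set are shown first, so that the genes with the widest differences can be read side by side. Each window runs from 250 bases before to 50 bases after the gene's start in RefSeq (GRCm38.p6), on the gene's strand; all 7 genes matched, and of 2 windows listed for Fcgr3 the first is printed. Capitals mark the letters that were searched on both strands, GAGGAA, a form of the site bound by PU.1, an ETS factor of myeloid and B cells. Shorter forms of the site were not searched. The windows lie at chr1:170976022-170976321 for Fcgr2b, chr1:171059354-171059653 for Fcgr3, chr1:170927534-170927833 for Fcrla and chr3:96293920-96294219 for Fcgr1, all on the minus strand.

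Fcgr2b: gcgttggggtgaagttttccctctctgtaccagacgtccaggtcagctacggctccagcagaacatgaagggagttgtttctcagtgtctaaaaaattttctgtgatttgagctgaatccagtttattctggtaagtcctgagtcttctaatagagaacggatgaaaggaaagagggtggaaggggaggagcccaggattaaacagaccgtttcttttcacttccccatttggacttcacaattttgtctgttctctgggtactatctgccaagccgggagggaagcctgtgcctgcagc
Fcgr3: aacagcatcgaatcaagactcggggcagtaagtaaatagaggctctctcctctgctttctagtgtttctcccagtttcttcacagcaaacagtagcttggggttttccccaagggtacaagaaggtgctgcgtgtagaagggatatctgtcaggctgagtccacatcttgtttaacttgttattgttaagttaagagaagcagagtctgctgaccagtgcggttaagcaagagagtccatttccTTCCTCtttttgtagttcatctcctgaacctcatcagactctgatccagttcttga
Fcrla: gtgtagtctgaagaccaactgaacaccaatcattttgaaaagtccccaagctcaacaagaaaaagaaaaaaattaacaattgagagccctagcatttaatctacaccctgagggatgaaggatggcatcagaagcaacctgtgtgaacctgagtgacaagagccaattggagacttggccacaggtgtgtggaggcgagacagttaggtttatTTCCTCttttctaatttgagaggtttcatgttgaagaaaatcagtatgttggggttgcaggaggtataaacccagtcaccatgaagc
Fcgr1: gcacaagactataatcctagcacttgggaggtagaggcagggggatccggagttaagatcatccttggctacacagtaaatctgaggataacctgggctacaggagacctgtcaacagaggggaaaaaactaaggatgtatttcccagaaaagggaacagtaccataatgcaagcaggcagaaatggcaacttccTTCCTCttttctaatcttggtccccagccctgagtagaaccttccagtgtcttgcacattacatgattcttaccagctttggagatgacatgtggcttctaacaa

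With the annotated start counted as position 0, GAGGAA was matched from position -6 in Fcgr3, from -37 in Fcrla and from -55 in Fcgr1, each time on the other strand, as TTCCTC, and not in the Fcgr2b window. Of the 7 genes 5 held it, the others being Fcgr4 and Fcrl1. Of 32851 promoter windows of the same length, 28.3% held it. That is a share of windows and not of genes, so it is no measure of enrichment among the 7 genes. Chosen after the windows were seen, the Fcgr1 and Fcrla windows share the run TTCCTCTTTTCTAAT of 15 bases around the match, and the Fcgr1 and Fcgr3 windows share TTCCTTCCTCTTTT, of 14 bases. These were the longest runs among the 21 pairs of member windows, whose median was 8 bases, and the first is held by 3 and the second by 5 of the 32851 windows. These counts include the member windows themselves, for the second run both Fcgr3 windows, and the 5 windows belong to 4 genes. Since the runs were picked for their length, their rarity is no evidence of a shared element. A match is a description of the letters and not of binding, and a window without a match shows only that these letters are not in it. No binding data were used here.

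Of the 15 probe sets, 8 were lower and 1 was higher in AID-/- leukaemia at an adjusted p under 0.05 in limma, a linear model that moderates each variance towards those of all probe sets; over all 45037 probe sets 7.39% were lower and 7.24% higher. The same 9 probe sets had groups that did not overlap, 8 of them lower and 1 higher, beside 18.7% and 14.2% of all probe sets. Since the genes were chosen on this contrast, nothing is read from these counts. With no moderation of the variances none of the 15 passed adjustment, while 9 had an unadjusted p under 0.05 by either fit. Values are RMA log2 expression, and levels of different probe sets are not comparable with each other.

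**Figure D1:**
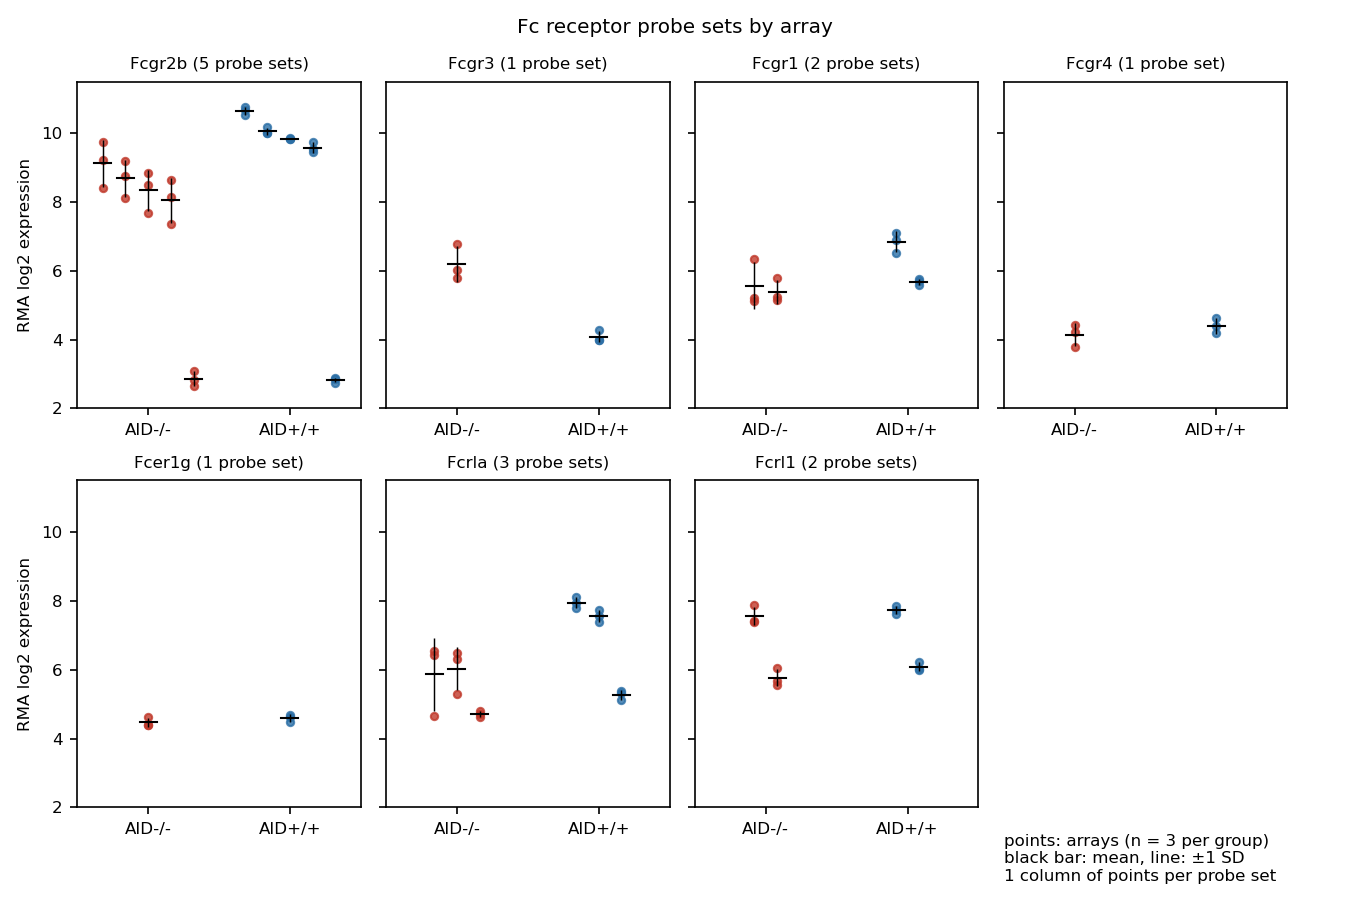
RMA log2 expression of the 15 Fc receptor probe sets on each array, with AID-/- at the left and AID+/+ at the right of each panel; points are arrays, black bars are means and lines ±1 SD (n = 3 per group). The bright Fcgr2b probe sets and the Fcrla probe sets are lower in AID-/-, Fcgr3 is higher, and Fcer1g, Fcgr4 and Fcrl1 overlap between groups.

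The inhibitory receptor gene Fcgr2b was lower in AID-/- leukaemia at 4 of its 5 probe sets, by similar amounts. At 1435477_s_at, its brightest probe set, the values were 9.22, 8.40 and 9.74 in AID-/- leukaemia, against 10.66, 10.53 and 10.76 in AID+/+ leukaemia. Every AID-/- array lay below every AID+/+ array, and AID-/- replicate 2 was the lowest. The means were 9.12 ± 0.68 for AID-/- and 10.65 ± 0.11 for AID+/+ leukaemia (SD, n = 3 each), a difference of -1.53 (moderated standard error, SE, 0.29), or 2.89-fold lower.

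The other bright probe sets of Fcgr2b gave the same picture. At 1435476_a_at the values were 8.75, 8.12 and 9.19 in AID-/- leukaemia, against 9.99, 9.99 and 10.17 in AID+/+ leukaemia, a difference of -1.37 (SE 0.23). At 1455332_x_at they were 8.50, 7.66 and 8.84 in AID-/- leukaemia, against 9.83, 9.84 and 9.85 in AID+/+ leukaemia, a difference of -1.50 (SE 0.26). At 1451941_a_at they were 8.15, 7.36 and 8.63 in AID-/- leukaemia, against 9.44, 9.74 and 9.55 in AID+/+ leukaemia, a difference of -1.53 (SE 0.28). All 4 ordered the AID-/- arrays alike, with replicate 3 highest and replicate 2 lowest, and their fold decreases lay between 2.58 and 2.89. They share a transcript, so they are not independent measurements, and by Affymetrix naming the s and x suffixes mark probe sets that may read related transcripts. The remaining probe set, 1447622_at, sat near the floor of the scale at 2.66 to 3.09 in AID-/- and 2.75 to 2.87 in AID+/+ leukaemia, with 6.35% of probe sets below it on average, and its low values hold little order.

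Among the activating receptors, Fcgr3, which encodes the low-affinity receptor FcγRIII (CD16), differed in the opposite direction. Its single probe set, 1448620_at, was at 6.01, 6.78 and 5.78 in AID-/- leukaemia, against 4.27, 3.99 and 3.98 in AID+/+ leukaemia. The groups were separated by a gap, and AID-/- replicate 2 was the highest array. The means were 6.19 ± 0.52 for AID-/- and 4.08 ± 0.16 for AID+/+ leukaemia (SD, n = 3 each), a difference of 2.11 (SE 0.23), or 4.31-fold higher. The AID+/+ values lay under the median probe set, 4.89, so the size of the fold is approximate. Fcgr2b and Fcgr3 encode closely related extracellular parts, and whether any probe of either set reads both transcripts was not tested.

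**Figure D2:**
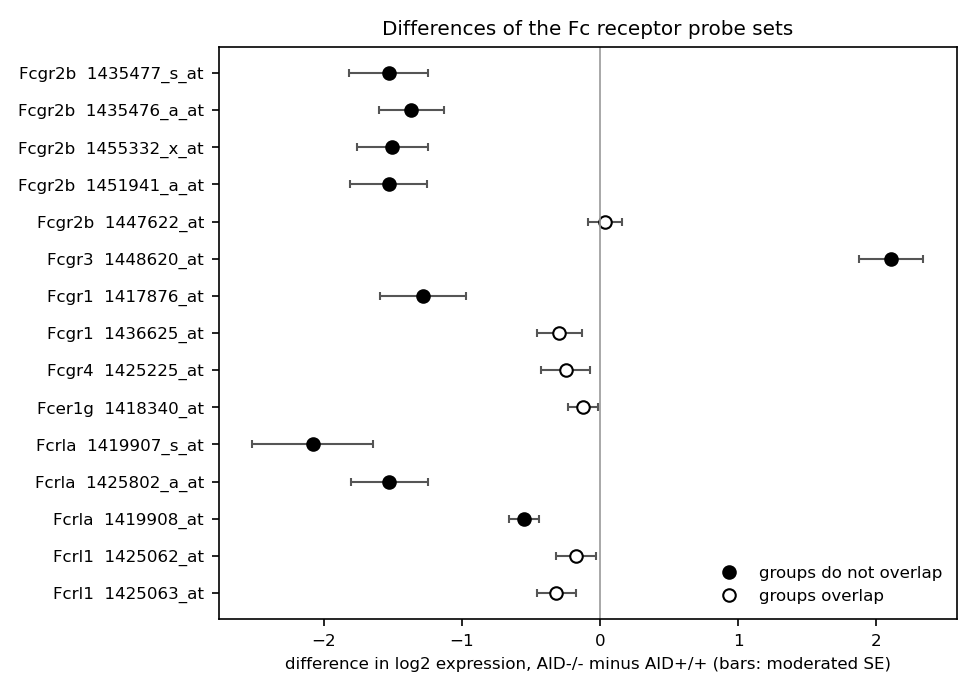
Difference in log2 expression, AID-/- minus AID+/+, of each Fc receptor probe set, with bars of 1 moderated SE; filled points mark probe sets whose groups do not overlap. Fcgr3 lies at 2.11, and the 4 bright Fcgr2b probe sets lie together between -1.53 and -1.37.

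Fcgr2b and Fcgr3, both chosen on this contrast, were set beside each other on each array as a description. The mean of the 4 bright Fcgr2b probe sets was 8.66, 7.88 and 9.10 on AID-/- arrays 1, 2 and 3, against 9.98, 10.03 and 10.08 on the AID+/+ arrays. The AID-/- array with the lowest Fcgr2b, replicate 2, had the highest Fcgr3, and the one with the highest Fcgr2b, replicate 3, had the lowest Fcgr3. The Fcgr3 value minus the Fcgr2b mean on the same array was -2.36 ± 1.14 on AID-/- and -5.95 ± 0.21 on AID+/+ arrays (SD, n = 3 each), a shift of 3.59 log2 units. That shift joins the group differences of both genes and is no further result, and an order of 3 arrays is no test. The absolute size of the within-array value has no meaning, since it sets different probe sets against each other.

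**Figure D3:**
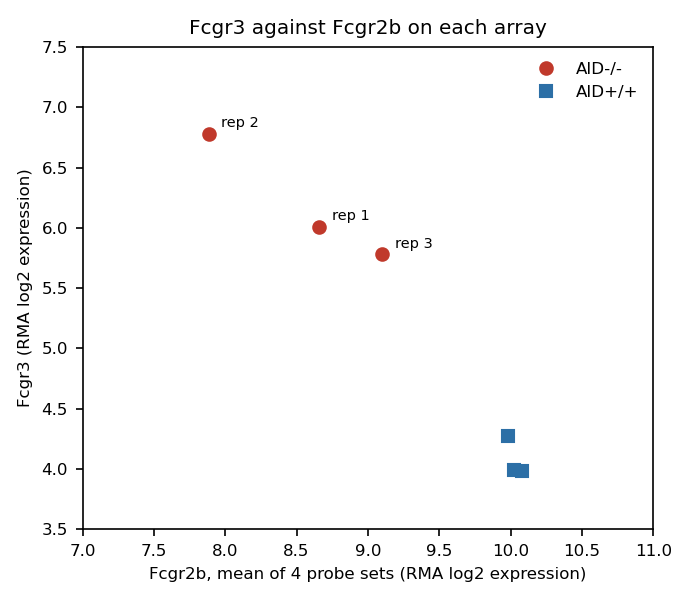
Fcgr3 (y axis) against the mean of the 4 bright Fcgr2b probe sets (x axis), both RMA log2 expression, 1 point per array. The 3 AID-/- arrays spread from 7.88 to 9.10 in Fcgr2b and from 5.78 to 6.78 in Fcgr3, and the 3 AID+/+ arrays lie close together at high Fcgr2b and low Fcgr3.

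Fcgr1, which encodes the high-affinity receptor FcγRI (CD64), was lower in AID-/- leukaemia at 1 of its 2 probe sets. At 1417876_at the values were 5.22, 5.12 and 6.35 in AID-/- leukaemia, against 6.90, 6.52 and 7.11 in AID+/+ leukaemia. The groups did not overlap, and AID-/- replicate 3, the highest of its group, came closest to the AID+/+ arrays. The difference was -1.28 (SE 0.31), or 2.43-fold lower. At 1436625_at the values were 5.24, 5.14 and 5.78 in AID-/- leukaemia, against 5.76, 5.60 and 5.69 in AID+/+ leukaemia, so AID-/- replicate 3 lay above all AID+/+ arrays while the other AID-/- arrays lay below them. The difference there was -0.29 (SE 0.16), and the probe sets of Fcgr1 therefore disagree on its size.

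Fcgr4, which encodes FcγRIV, and Fcer1g, which encodes the gamma chain, overlapped between the groups at low levels. Fcgr4 was at 3.79, 4.43 and 4.22 in AID-/- leukaemia, against 4.39, 4.18 and 4.62 in AID+/+ leukaemia, a difference of -0.25 (SE 0.18). Fcer1g was at 4.41, 4.62 and 4.40 in AID-/- leukaemia, against 4.47, 4.63 and 4.69 in AID+/+ leukaemia, a difference of -0.12 (SE 0.11). Both lay under the median probe set on all 6 arrays, with 40.7% and 45.0% of probe sets below them on average. The gamma chain gene had a low signal on the same AID-/- arrays on which Fcgr3 was higher than in AID+/+ leukaemia. Levels of different probe sets are not comparable, so nothing is read from setting these genes side by side. No detection calls were used here, so neither Fcgr4 nor Fcer1g can be called absent.

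The Fc receptor-like genes differed from each other. Fcrla was lower in AID-/- leukaemia at all 3 of its probe sets. At 1419907_s_at it was at 6.42, 4.65 and 6.55 in AID-/- leukaemia, against 7.78, 7.95 and 8.12 in AID+/+ leukaemia. AID-/- replicate 2 lay well below the other arrays of its group, and the groups did not overlap. The difference was -2.08 (SE 0.44), or 4.23-fold lower, and it was -1.47 without AID-/- replicate 2.

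At 1425802_a_at Fcrla was at 6.31, 5.31 and 6.49 in AID-/- leukaemia, against 7.73, 7.37 and 7.57 in AID+/+ leukaemia, a difference of -1.52 (SE 0.28). At 1419908_at it was at 4.63, 4.72 and 4.81 in AID-/- leukaemia, against 5.39, 5.11 and 5.31 in AID+/+ leukaemia, a difference of -0.55 (SE 0.11). The direction was shared by the 3 probe sets and the size was not, and the dimmest of them did not place AID-/- replicate 2 lowest.

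Fcrl1 overlapped between the groups at both probe sets, well above the median level. At 1425062_at it was at 7.41, 7.40 and 7.87 in AID-/- leukaemia, against 7.85, 7.73 and 7.63 in AID+/+ leukaemia, a difference of -0.18 (SE 0.14). At 1425063_at it was at 5.68, 5.57 and 6.06 in AID-/- leukaemia, against 6.00, 6.23 and 6.03 in AID+/+ leukaemia, a difference of -0.31 (SE 0.14). AID-/- replicate 3 lay above all AID+/+ arrays at the first probe set and between them at the second.

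The AID-/- arrays were spread more widely than the AID+/+ arrays at 14 of the 15 probe sets, beside 53.7% of all probe sets. The median SD of the 15 was 0.52 in AID-/- and 0.13 in AID+/+ leukaemia, against 0.13 and 0.12 over all probe sets. Of the 8 probe sets called lower, 7 had their lowest AID-/- value in replicate 2 and 1 in replicate 1. The probe sets share arrays, so this describes these 3 leukaemias and is no test.

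The genes most alike in pattern were found by the root mean square difference of mean-centred log2 values over the 6 arrays, 1 probe set a gene, and are a description. Ankrd37 was among the nearest 2 genes of each of the 4 bright Fcgr2b probe sets, at 0.09 to 0.15, and of Fcgr1 at 1417876_at, at 0.26. Ankrd37 was at 6.75, 5.97 and 7.34 in AID-/- leukaemia, against 7.99, 8.06 and 8.33 in AID+/+ leukaemia. Mrc1, which encodes the mannose receptor of macrophages, was among the nearest to Fcgr2b at 1435477_s_at (0.12) and 1451941_a_at (0.18), Dusp3 at 1435476_a_at (0.11) and Cnn3 at 1455332_x_at (0.13). For Fcgr1 at 1417876_at the nearest was B4galt4 (0.21).

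For Fcgr3 the nearest were Gramd3 (0.15) and H2-T24 (0.18), a gene of the class I major histocompatibility family. Gramd3 was at 8.48, 9.49 and 8.68 in AID-/- leukaemia, against 6.77, 6.53 and 6.68 in AID+/+ leukaemia, again with AID-/- replicate 2 highest. For Fcrla the nearest were Gfod1 (0.23) and Emp3 (0.25) at 1419907_s_at, and Zbtb8a (0.16) and Mxi1 (0.17) at 1425802_a_at.

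The other receptors for antibodies did not pass the test. For these and the following genes, 1 probe set a gene was tested with limma and adjusted over 18193 genes, with 10.1% of them higher in AID-/- leukaemia and 8.42% lower. Of 12 listed receptors 8 were measured, and 0 were higher and 0 lower in limma, with 0 at an unadjusted p under 0.05, also without moderation. Trim21, a cytosolic antibody receptor and ubiquitin ligase, averaged 7.91 ± 0.17 on the AID-/- arrays and 7.69 ± 0.15 on the AID+/+ arrays (SD, n = 3 each; limma adjusted p = 0.246). The neonatal Fc receptor gene Fcgrt and the IgE receptor genes Fcer1a and Fcer2a differed by 0.07, -0.07 and -0.06 (limma adjusted p = 0.679, 0.732 and 0.732). Of the 8, 7 lay under the median probe set on all arrays. Fcrl5, Fcrl6 and Fcrlb were not analysed here.

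Genes that carry the activating signal moved in both directions. Among 24 measured genes the test called 3 higher and 5 lower and left 16 uncalled, and the median difference was -0.05, beside -0.03 over all genes. Lcp2, the adaptor SLP-76 downstream of tyrosine-motif receptors, was at 7.90, 8.60 and 8.25 in AID-/- leukaemia, against 5.49, 5.36 and 5.94 in AID+/+ leukaemia. It was higher by 2.65 (SE 0.21, limma adjusted p = 0.000133), and its other probe set by 0.78. AID-/- replicate 2 was the highest array, as for Fcgr3 and for Pik3cd of this list, while for Grb2 it was AID-/- replicate 3.

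Malt1, a paracaspase that links immune receptors to NF-κB, fell by 1.59 (SE 0.17, limma adjusted p = 0.000640), and its other probe sets differed by -1.60 and -1.40. Pik3cd, the leukocyte phosphoinositide kinase subunit, was higher by 0.98 (SE 0.21, limma adjusted p = 0.0147), but it no longer passed when AID-/- replicate 3 was left out (adjusted p of 0.0535), nor without the second AID+/+ array (0.0599) or the third (0.0593). Its 6 probe sets differed by -0.20 to 1.10. Grb2, the adaptor that brings SOS to receptors, was higher by 0.49 (SE 0.08, limma adjusted p = 0.00566), but its second probe set differed by -0.35, and with probe sets averaged the difference was 0.07 (adjusted p = 0.820).

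Lat, Gab2, Sos1 and Prkcd, picked once the values were known, made up the rest of the lower genes. Lat, the membrane scaffold that works with SLP-76, was at 6.03, 8.30 and 7.19 in AID-/- leukaemia, against 9.41, 9.27 and 9.46 in AID+/+ leukaemia. It fell by 2.21 (SE 0.48, limma adjusted p = 0.0149), and here AID-/- replicate 2 was the highest array of its group. Gab2, Sos1 and Prkcd fell by 0.45, 0.52 and 0.43. The kinase gene Syk, chosen likewise, averaged 10.86 ± 0.19 on the AID-/- arrays and 10.73 ± 0.29 on the AID+/+ arrays (SD, n = 3 each) and did not pass. Across the list, 6 members passed without AID-/- replicate 1 or 2, 4 without AID-/- replicate 3, 5 without AID+/+ replicate 1 or 2, and 3 without AID+/+ replicate 3. Lyn and Card9 were not analysed here.

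Inhibitory receptors and phosphatases, the company of FcγRIIB, had 15 measured genes, of which the test called 4 lower and 1 higher and left 10 uncalled, with a median difference of -0.22. Cd22, a sialic acid-binding inhibitory receptor of B cells, was at 9.59, 7.12 and 8.44 in AID-/- leukaemia, against 11.42, 11.01 and 11.15 in AID+/+ leukaemia. It fell by 2.81 (SE 0.52, limma adjusted p = 0.00796) and by 2.91 at its other probe set. AID-/- replicate 2 was the lowest array, as for Fcgr2b and for Ptpn6, Cd72 and Siglecg of this list.

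SHP-1, a phosphatase used by many inhibitory receptors, is the product of Ptpn6, whose expression fell by 1.06 (SE 0.17, limma adjusted p = 0.00450); its other probe set differed by -0.73 and did not pass. Cd72 and Siglecg, inhibitory receptors of B cells, fell by 0.84 and 0.72 (limma adjusted p = 0.0127 and 0.0217). Cd72 no longer passed with AID+/+ replicate 1 or 2 left out (adjusted p of 0.0512 and 0.0528), nor did Siglecg without AID-/- replicate 1 or 2 or AID+/+ replicate 1 (0.0558, 0.0558 and 0.0562). Inpp5d, chosen after its values were seen, encodes SHIP, the phosphatase that FcγRIIB recruits. It was at 10.54, 11.01 and 10.93 in AID-/- leukaemia, against 10.32, 10.33 and 10.30 in AID+/+ leukaemia, higher by 0.51 (SE 0.13, limma adjusted p = 0.0272), and by 0.51 at its other probe set.

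Fcgr2b, chosen on this contrast, and Inpp5d, chosen with its values known, differed in opposite directions. That is a description, and nothing is read from it. The call on Inpp5d held only without AID-/- replicate 1 among the fits that left out 1 array, with an adjusted p of 0.0717, 0.0894, 0.0774, 0.0765 and 0.0910 in the others. Of the whole list, 3 members passed without AID-/- replicate 2 and 2 without AID+/+ replicate 1, against 4 or 5 without any other single array.

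**Figure D4:**
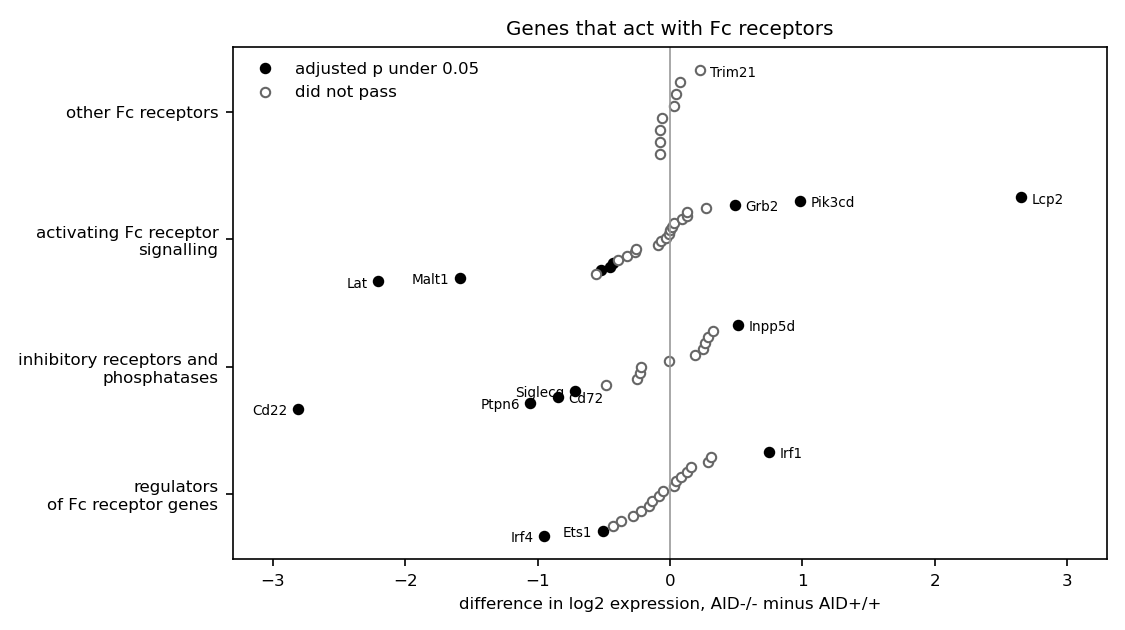
Difference in log2 expression, AID-/- minus AID+/+, of the measured genes of 4 lists around Fc receptors, ordered within each list; filled points passed at an adjusted p under 0.05. No other Fc receptor passed, and the inhibitory list has 4 filled points below 0 and 1 above.

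Transcription factors known to act on Fc receptor genes mostly stayed uncalled: among 18 measured the test called 1 higher and 2 lower, and 15 did not pass, with a median difference of -0.07. Irf4, a factor of activated B cells, fell by 0.95 (SE 0.13, limma adjusted p = 0.00194), and Ets1 fell by 0.51 (SE 0.10, limma adjusted p = 0.0103), with differences of -0.52, -0.17 and -0.07 at its other probe sets. Irf1, an interferon-gamma response gene, was higher by 0.75 (SE 0.14, limma adjusted p = 0.00857). Fcgr1 is itself known as inducible by interferon-gamma. Its difference was -1.28 at 1417876_at and -0.29 at 1436625_at, where the groups overlapped. Any part of interferon-gamma in these values was not tested. Gabpa, an ETS factor, differed by -0.28 and did not pass (limma adjusted p = 0.0701), but passed with dim probe sets left out or with an intensity trend (0.0469 and 0.0468). Spi1, which encodes PU.1 and was chosen after its values were seen, was at 8.60, 8.79 and 9.10 in AID-/- leukaemia, against 8.74, 8.28 and 8.54 in AID+/+ leukaemia, and did not pass (limma adjusted p = 0.245). Cebpe and Nfkb1 were not analysed here.

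Markers of other cell types were examined because most Fc receptor genes are active in myeloid cells. Of 59 measured markers of 7 other cell types, 1 was higher and 2 were lower, and 42 lay under the median probe set on all 6 arrays. Of the 14 monocyte and macrophage markers, 6 had an unadjusted p under 0.05 in limma, and 3 without moderation. In the list of monocytes and macrophages, 14 of 14 were measured and 9 lay under the median throughout, among them Adgre1, with means of 3.42 ± 0.19 over AID-/- and 3.85 ± 0.23 over AID+/+ arrays, and Cd14, with 4.05 ± 0.16 over AID-/- and 4.25 ± 0.19 over AID+/+ arrays (SD, n = 3 each). The summed linear signal of this list was 386 to 454 in AID-/- and 477 to 502 in AID+/+ leukaemia. Its direction rested on Mrc1: without that gene, a setting chosen after seeing the data, the other 13 markers summed to 339 to 354 in AID-/- and 315 to 333 in AID+/+ leukaemia. Mrc1, of this list, was at 5.89, 5.004 and 6.71 in AID-/- leukaemia, against 7.47, 7.34 and 7.41 in AID+/+ leukaemia, and fell by 1.54 (SE 0.36, limma adjusted p = 0.0214). It no longer passed with any 1 of the AID+/+ arrays left out (adjusted p of 0.0741, 0.0645 and 0.0718).

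Lyz2, the lysozyme of myeloid cells, was at 5.90, 6.46 and 5.69 in AID-/- leukaemia, against 4.96, 5.33 and 5.49 in AID+/+ leukaemia, with AID-/- replicate 2 highest. It was higher by 0.76 (SE 0.21, limma adjusted p = 0.0436), a call that held only without AID-/- replicate 3 among the fits with 1 array left out (adjusted p of 0.0631 to 0.135 in the others). Itgam, the macrophage integrin, did not pass, at 4.03, 3.64 and 5.54 in AID-/- leukaemia, against 3.58, 3.16 and 3.31 in AID+/+ leukaemia. Its high array was AID-/- replicate 3. Whether myeloid cells contributed to the Fcgr3 values was not tested.

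For natural killer cells, which carry FcγRIII, 7 of 8 markers were measured, all under the median throughout, and the summed signal was 78.7 to 87.7 in AID-/- and 95.7 to 112 in AID+/+ leukaemia. Klrd1 of that list fell by 0.87 (SE 0.15, limma adjusted p = 0.00532). Of the 7 natural killer cell markers, 3 had an unadjusted p under 0.05 in limma, and 2 without moderation. In neutrophils 11 of 12 were measured with sums of 189 to 199 in AID-/- and 202 to 245 in AID+/+ leukaemia, and in mast cells and basophils 9 of 9 with sums of 157 to 178 and 163 to 183 in the same order. No member of these lists passed in limma (1 in each at an unadjusted p under 0.05, and 2 and 0 without moderation). The sums of dendritic cell markers (7 of 8 measured) were 176 to 187 in AID-/- and 188 to 195 in AID+/+ leukaemia, those of T cell markers (6 of 8) 160 to 176 and 171 to 181, and those of erythroid markers (5 of 7) 171 to 176 and 181 to 226, in the same order; none of these passed in limma, with 0, 0 and 2 at an unadjusted p under 0.05 and 0, 0 and 1 without moderation. With the marker of widest difference left out in the same way, the ranges overlapped for dendritic cells (without Flt3, 115 to 120 in AID-/- and 112 to 129 in AID+/+ leukaemia) and for erythroid cells (without Gata1, 107 to 114 in AID-/- and 113 to 135 in AID+/+ leukaemia). T cell ranges still overlapped without Cd3d. The AID-/- range stayed lower for neutrophils (without Prtn3, 153 to 157 in AID-/- and 161 to 188 in AID+/+ leukaemia). It also stayed lower for natural killer cells (without Klrd1, 71.4 to 77.3 in AID-/- and 80.5 to 94.7 in AID+/+ leukaemia). For mast cells and basophils the full ranges overlapped, but without Hdc they did not (125 to 136 in AID-/- and 137 to 158 in AID+/+ leukaemia). The part of other cells in the Fc receptor values was not tested. In RNA of whole samples, fewer cells of a type and less RNA per cell cannot be told apart. The sums also rest on dim probe sets: 10 neutrophil and 7 mast cell and basophil markers lay under the median probe set on all 6 arrays. The lower quartile of all probe sets was itself lower on each AID-/- array than on each AID+/+ array. No detection calls were used, so whether the lower sums reflect more than background signal was not tested.

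As a check on the labelled lymphoblastic leukaemia, 10 of 11 B-lineage markers were measured, and none lay under the median throughout. Of these 10, 0 were higher and 2 lower in limma, Cd22 and Cd72, which are described above. Vpreb1, a surrogate light chain gene, was at 13.12 to 13.24 in AID-/- and 13.12 to 13.17 in AID+/+ leukaemia. Array medians lay between 4.85 and 4.90. Across probe sets, Pearson's r was 0.991 to 0.994 within AID-/-, 0.995 to 0.996 within AID+/+ and 0.972 to 0.977 between groups. The Y-linked gene Kdm5d was at 7.62 to 7.74 in AID-/- and 2.42 to 2.68 in AID+/+ leukaemia at its brightest probe set, so the sex of the animals and AID status cannot be told apart in any value here. The AID gene itself was not analysed here.

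Neighbouring genes were set beside the Fc receptor genes. On chromosome 1 the measured genes run in the order Fcrla, Fcgr2b, Fcgr4, Fcgr3 and, beyond 6 other genes, Fcer1g. Along this stretch the members differed by -2.08, -1.53, -0.25, 2.11 and -0.12 at their brightest probe sets; the groups overlapped at Fcgr4, which lies between Fcgr2b and Fcgr3, and at Fcer1g. Of 36 measured neighbours of all 7 genes, 6 passed as higher and 6 as lower and 24 stayed uncalled, beside the 10.1% higher and 8.42% lower of all genes.

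Among the neighbours, Cd1d2, a lipid-presenting molecule near Fcrl1, was higher by 2.01 (SE 0.21, limma adjusted p = 0.000698), and Etv3, an ETS repressor next to Fcrl1, by 0.86 (SE 0.10, limma adjusted p = 0.00115), though at only 1 of its 4 probe sets; with probe sets averaged Etv3 differed by 0.32 and did not pass (adjusted p = 0.0701). Fcrl1, between them, overlapped between the groups. Polr3gl, near Fcgr1, fell by 0.58 (SE 0.10, limma adjusted p = 0.00480), and Atf6, a stress-responsive transcription factor beside the chromosome 1 cluster, fell by 0.61 (SE 0.10, limma adjusted p = 0.00497). Of the 36 neighbours, 6 passed without AID+/+ replicate 1, 4 without AID+/+ replicate 2 and 6 without AID+/+ replicate 3.

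**Figure D5:**
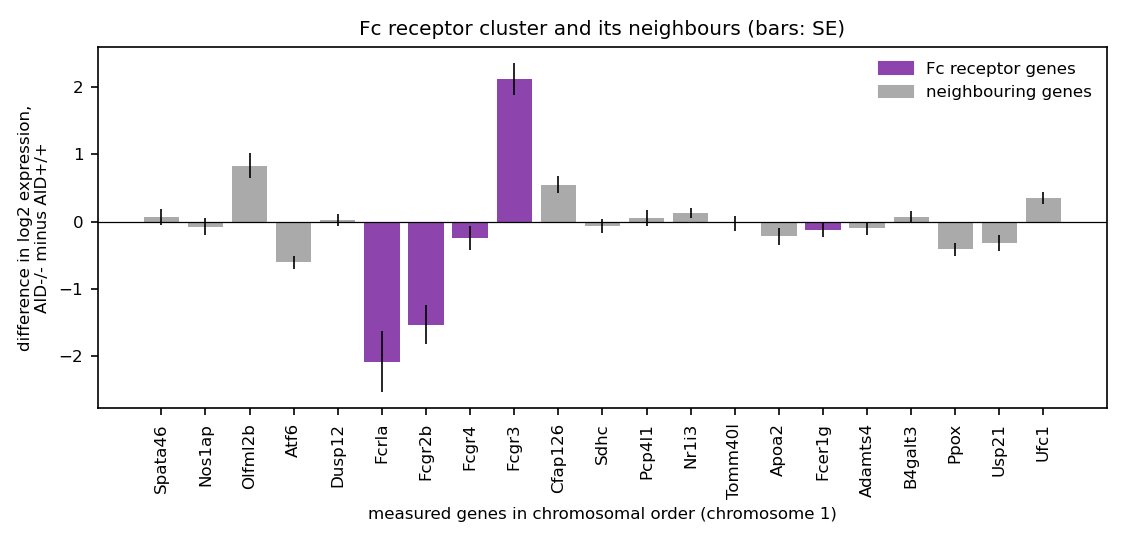
Difference in log2 expression, AID-/- minus AID+/+, of the measured genes of the chromosome 1 cluster in chromosomal order, 1 probe set a gene, with bars of 1 SE; Fc receptor genes are purple and neighbours grey. Fcrla and Fcgr2b point down at -2.08 and -1.53 and Fcgr3 points up at 2.11, while most genes between Fcgr3 and Fcer1g lie near 0.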

How the data were processed

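Total RNA of leukaemia cells was purified on RNeasy columns and hybridised as biotinylated cRNA to Affymetrix expression arrays, per the labels' protocols. The authors deposited a log2 expression value for each probe set and array, made with RMA and Partek per the submitters' processing notes; versions and the order of steps are not given in the sources used here. The members and gene lists were chosen with earlier results of these data known. The file lists 45101 probe sets; 64 control probe sets did not enter. Platform annotation gave 34945 probe sets 1 gene symbol, 932 several and 9160 none, and 34741 symbols were taken from RefSeq (GRCm38.p6) through Entrez identifiers. No filter on dim probe sets was used, and the number of arrays limits the precision.

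AID-/- minus AID+/+ was estimated by lmFit and eBayes of limma 3.58.1 (R 4.3.3), with no term but the group; p-values were two-sided, adjusted by Benjamini-Hochberg and called under 0.05, over 45037 probe sets for the members and over 18193 genes, each at its probe set with the highest mean, for lists. The SE is the moderated one. Named genes are all members, the 4 smallest p of each list, and up to 3 called markers of each other cell type; any other gene was picked with its values known, which holds for Adgre1, Cd14, Itgam, Vpreb1 and Kdm5d too. Neighbours are the measured genes between members less than 3 Mb apart and 5 on either side. Same-numbered replicates did not deviate together (correlations of -0.05, -0.07 and 0.03), so no block was used. The settings varied were array weights, quantile normalization, centring on the median, dropping dim probe sets, an intensity trend, no moderation, a replicate block, a threshold of 0.01, averaged probe sets and leaving out each array. The fit was tested on simulated data. Some genes and a promoter motif are not reported here.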

Additional observations from a re-analysis of the deposited data

How the results depend on the processing

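The 15 differences of the Fc receptor probe sets moved by less than the spread between replicates in all 150 values under 10 settings. These were quantile normalization, median centring, array weights, the replicate block and leaving out each array. None that had passed changed direction. By construction, leaving out 1 array or adding the block could not move a difference beyond that spread. Nor could leaving out an array, array weights or the block reverse a probe set whose groups did not overlap. All that had passed were such probe sets, so for these settings neither result shows stability. The differences were smallest for Fcgr2b and the brighter Fcrla probe sets without AID-/- replicate 2. Of the 15 probe sets 9 passed, 9 with the replicate block and 7 to 11 with 1 array left out, but 0 with no moderation of variances. Over all probe sets 6589 passed, against 3250 at a threshold of 0.01, 2363 with no moderation, 5369 with the replicate block and 4307 to 6109 with 1 array left out (4307 without AID+/+ replicate 3). Of the activating signalling genes 8 passed, against 3 at 0.01, 3 with no moderation and 3 to 6 with 1 array left out. Of the inhibitory genes 5 passed, against 2 at 0.01, 1 with no moderation and 2 to 5 with 1 array left out. Of the regulators 3 passed, against 1 with no moderation and 3 or 4 with 1 array left out. Of the neighbours 12 passed, against 4 at 0.01, 5 with no moderation, 7 with the replicate block and 4 to 10 with 1 array left out; the replicates share only a number. The stricter threshold passes fewer genes by construction, and the cause of the other changes was not tested. No setting passed any of the other antibody receptors.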
